A study of Trichechus manatus latirostris with 11 samples.

Results

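Keratins, claudins, cadherins, cadherin-related proteins and protocadherins are described here as they were measured in the blood cells of Florida manatees (Trichechus manatus latirostris). RNA was sequenced from buffy coats, the layer of white blood cells and platelets in centrifuged blood, of 4 adult manatees under treatment for red tide illness at Lowry Park Zoo and of 7 adult controls. Of the controls, 4 were sampled at Crystal River, 2 at the Indian River Lagoon and 1 at Lowry Park Zoo, where it was recovering from pneumonia. The labels describe storage in RNAlater and depletion of ribosomal and globin RNA for all samples, whereas the study's methods also describe buffy coats of the red tide group as frozen directly at a lower temperature. Per the study's methods, the red tide animals had been sampled partly on arrival and partly after treatment, and at other dates than the wild controls, so illness, treatment, place, date of sampling and storage cannot be told apart. The genes were chosen by name: every row of the table whose RefSeq symbol starts with KRT, CLDN, MUC, CDH or PCDH and goes on to a number. This gave 32 of 15298 rows, namely 9 keratins, 9 claudins, 5 cadherins, 3 cadherin-related genes (CDHR) and 6 protocadherins. The table gives a group mean of normalized counts (counts divided by the size factor of each library) for 4 libraries and for 7 libraries, which correspond to the red tide and the control group by their number. The directions given in the study's text run opposite to this assignment, so the groups are named here by their number of libraries. Which of them is the red tide group rests on that number and on the title of the table. The title names red tide first and 7 others second.

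Keratins are the intermediate filaments of epithelial cells, in which a type I and a type II chain pair. Claudins are membrane proteins that form the strands of tight junctions and set which ions pass between cells. Classical cadherins hold neighbouring cells together at adherens junctions through catenins, whereas protocadherins are related proteins best known from the nervous system, and mucins are the heavily glycosylated proteins of mucus and of apical cell surfaces. White blood cells are not epithelial and most of these genes are silent or nearly so in them, which makes the families a check on epithelial and silent-gene signal in blood. In bulk samples, fewer cells of a type and less RNA per cell cannot be told apart.

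RefSeq names 98 manatee genes that fit the rule, and 66 of these had no row under their symbol. All 12 mucins that RefSeq names were among them, MUC1 included. MUC17, which the study names, is not a symbol of the RefSeq table and was not analysed here, so the absence of mucins from these results comes from the matching of names and does not show that the table holds none. KRT8 and KRT18, the keratin pair of simple epithelia, had no row either. The same held for CDH5, the cadherin of endothelium, for CDH2 and CDH11, and for the epithelial claudins CLDN3 and CLDN4. Rows were present for 9 of 25 keratin, 9 of 21 claudin, 5 of 20 cadherin, 3 of 5 cadherin-related and 6 of 15 protocadherin symbols. No row of the table had a mean of 0 in either group, and only 65.9% of rows could be given a symbol, so a missing symbol does not show that a gene had no reads. KRTCAP2, a subunit of the complex that transfers sugar chains to proteins, and CLDND1, a claudin-domain protein, were taken by the rule through their names and belong to neither family in function.

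Nearly all of these genes had a higher mean in the 4 libraries. The 4-library mean was above the 7-library mean in 30 of 32 genes, against 56.4% of all rows, and KRT19 and CLDN7 were the exceptions. It was at least 4 times higher in 21 of the 32, whereas 12.0% of all rows reached that ratio. CDH15, CDHR5 and KRT80 had at most 3 reads in each group and are given no ratio, and without them the count was 18 of 29. None had a mean at least 4 times lower in the 4 libraries, which 2.27% of all rows had. On the log2 scale, the ratio of the means (4-library over 7-library) had a median of 2.84 over the 32 genes and 0.14 over all rows.

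**Figure D1:**
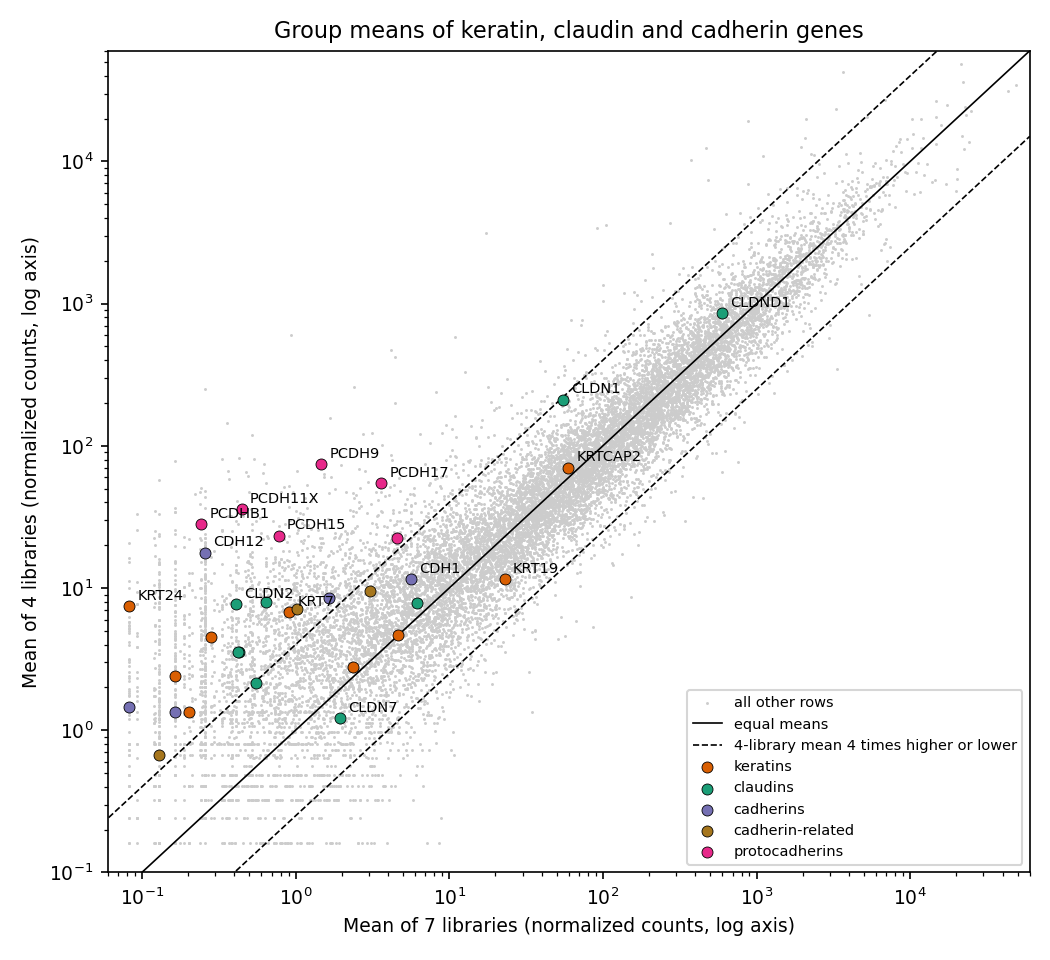
Mean normalized count of each row in the 4 libraries (vertical, log axis) against the 7 libraries (horizontal, log axis), with the 32 genes colored by family over all other rows in grey. Points above the upper dashed line have a 4-library mean at least 4 times higher, where 21 of the 32 genes lie, all 6 protocadherins among them.

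The share of genes at this ratio varied between the families. All 6 protocadherins reached the 4-fold ratio, and the median of their log2 ratios was 5.29. Of the cadherins, 4 of 5 were at that ratio (median 3.03), and of the cadherin-related genes 2 of 3 (median 2.38). Keratins reached it in 5 of 9 (median 2.72) and claudins in 4 of 9 (median 1.96). CLDN1 and CLDN15 stood just under it, at ratios of 3.85 and 3.89. No test of the difference between families was made.

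Most of the genes were weakly expressed, and weak rows of the table as a whole also leaned to the 4 libraries. Of the 32 genes, 27 had a mean of up to 20 normalized counts over all 11 libraries. Among these 27, the 4-library mean was at least 4 times higher in 19, against 24.8% of the 6511 rows of that level. The median log2 ratio was 2.90 for the 27 genes and 0.68 for those rows. In the lowest band, with a mean of up to 2, 8 of 10 genes and 32.3% of rows were at that ratio, and the 8 include the 3 genes with no more than 3 reads in each group. Between means of 5 and 10 it was 2 of 5 genes and 20.5% of rows, and above 50 it was 0 of 3 genes and 1.91% of rows.

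**Figure D2:**
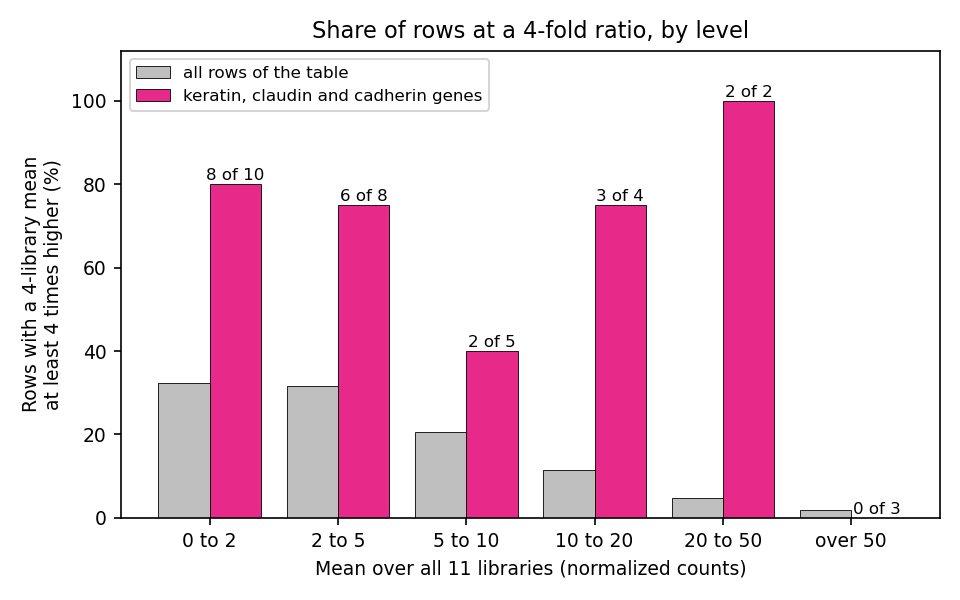
Share of rows with a 4-library mean at least 4 times the 7-library mean (vertical, percent) by mean normalized count over all 11 libraries (horizontal bands), for all rows in grey and for the 32 genes in pink with their counts. The grey bars fall from 32.3% in the lowest band to 1.91% above 50, and the pink bars stand above them in every band but the highest, which holds 3 genes.

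Values of single libraries were recovered for the weaker genes. Every read adds a step to a group mean whose size is set by the size factor of its library, and for low means a single combination of reads usually gives the value to its last digit. The 4 libraries had size factors of 1.56, 1.03, 0.620 and 0.372, and the 7 had size factors of 1.73, 1.53, 1.19, 1.17, 1.11, 1.10 and 0.702. Libraries are named here by these size factors, and they could not be tied to animals. The factors scale with the reads counted for genes. The study reports a narrower range of sequenced reads per sample than the range of these factors. Reads of the 4 libraries were found for 30 of the genes and reads of all 11 libraries for 27. CLDN1 and CLDND1 were too strongly expressed for either group, and KRT19, KRTCAP2 and CLDN20 have values for the 4 libraries alone. Recovery reached a mean of 80 in the 4 libraries but only 7 in the 7 libraries, so genes high in the 4 and low in the 7 are kept more often than the reverse. Of the 27 genes, 15 thus entered through a limit that favors a high 4-library mean, and genes that passed a test are counted only among the 12 whose means were both at most 6.

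The excess in the 4-library mean came mostly from the libraries of size factor 0.620 and 0.372. One of this pair held the highest normalized count in 28 of the 30 genes, 14 each, against 65.9% of all 9632 rows with reads of the 4 libraries. Their share of the 4 normalized counts of a gene had a median of 87.0% over the genes and 59.2% over those rows. By whole reads, before division by the size factor, one of the pair was highest in 24 of the 30, against 32.3% of those rows. The normalized counts of the 27 genes summed to 68.0 and 107 in the libraries of size factor 1.56 and 1.03 and to 645 and 595 in the other pair. In the 7 libraries the sum ranged from 13.7 to 56.1, a gap to the 4 that the unequal limits of recovery widen. Of the 27 genes, 13, 18, 23 and 23 had a read in the 4 libraries and 8 to 17 in each of the 7.

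**Figure D3:**
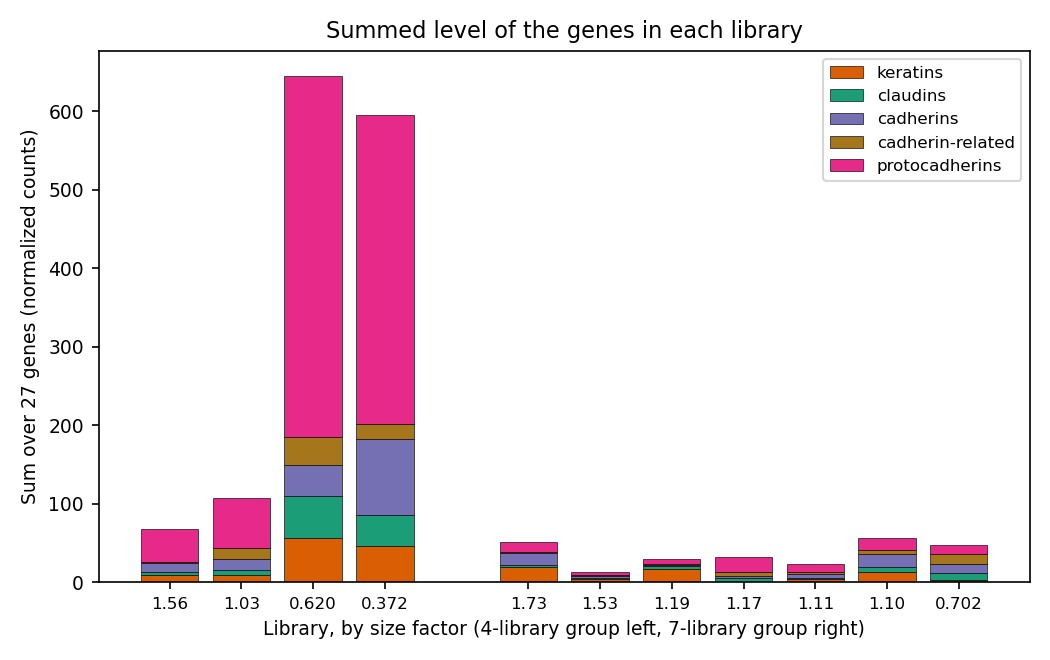
Sum of normalized counts over the 27 genes with reads of all libraries (vertical) for each of the 11 libraries (horizontal, by size factor, the 4-library group on the left), stacked by family. The libraries of size factor 0.620 and 0.372 stand at 645 and 595, the other 2 of their group at 68.0 and 107, and the 7 libraries between 13.7 and 56.1.

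The same pair stood apart over weak rows in general, to a smaller degree. Over the 3060 rows with both means at most 6, the mean normalized count was 1.58 and 1.64 in the libraries of size factor 1.56 and 1.03 and 3.15 and 3.11 in the pair, with 1.26 to 2.36 in the 7 libraries. Without the pair, 7 of 30 genes stayed at least 4 times higher in the mean of the other 2 libraries. Of the rows with reads of the 4 libraries, 7.50% were at that ratio. The median log2 ratio was 0.73 over the genes and -0.21 over those rows. The mean of the other 2 libraries lay above the 7-library mean in 20 of the 30 genes and below it in 10, of which 6 had no read there. The part of library quality, of library depth and of a single animal in this pattern was not tested.

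Single libraries were compared by an exact two-sided permutation test over the 330 ways to choose 4 of 11 libraries, on log2(normalized count + 1), whose smallest possible p is 0.00303. After Benjamini-Hochberg adjustment over all 4625 rows with reads of every library, 0 rows passed 0.05 in this exact permutation test, the smallest adjusted p being 0.149. At an unadjusted p under 0.05 there were 843 rows (18.2%). Among the 12 genes with both means at most 6, 1 had an unadjusted p under 0.05 with higher values in the 4 libraries (KRT20), against 5.92% of such rows. None of the 12 had all 4 libraries above all 7, and 0.490% of such rows did. Outside the 12, this was so in KRT7, PCDH11X and PCDH17, as in 2.77% of the 4625 rows, but each had a 4-library mean over 6 and was tested only through the higher limit of the 4 libraries, so nothing is read from their number. The p-values of single genes given below are descriptions of the same kind wherever the 4-library mean was over 6. KRT7, PCDH11X, PCDH17 and PCDHB1 had an unadjusted exact p of at most 0.0167 whichever 1 library was left out. Each of them had a 4-library mean over 6 and no adjusted p under 0.05, so nothing is read from this either.

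The protocadherins had the highest median ratio of the 5 families. PCDH17, a protocadherin of the non-clustered kind known from the brain, had 15, 26, 86 and 17 reads in the 4 libraries (size factors 1.56, 1.03, 0.620 and 0.372, the order used throughout), or 9.62, 25.3, 139 and 45.7 normalized counts. The 7 libraries, again by falling size factor, had 11, 3, 2, 0, 6, 3 and 5 reads, at most 7.12 normalized counts. All 4 libraries were thus above all 7, with means of 54.8 ± 57.8 (SD, n = 4) and 3.61 ± 2.69 (SD, n = 7) and an exact permutation p of 0.00303 (adjusted p = 0.149). The ratio of the means was 15.2, and it was 4.84 without the pair of low size factor.

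PCDH11X, the X-linked relative of the same kind, had 36, 3, 20 and 32 reads in the 4 libraries. In the 7 libraries it had 5 reads in all, 2 and 3 in the libraries of size factor 1.73 and 1.53 and none in the others. The groups did not overlap, with 36.1 ± 35.5 normalized counts (SD, n = 4) against 0.445 ± 0.795 (SD, n = 7), a ratio of 81.1 and an exact permutation p of 0.00303 (adjusted p = 0.149). In the mean of the libraries of size factor 1.56 and 1.03 alone it was 29.2 times the 7-library mean. The library of size factor 1.56 held more reads of PCDH11X than any other.

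PCDHB1, a gene of the clustered beta group that gives neurons their surface identity, had 2, 20, 12 and 27 reads in the 4 libraries. The only reads in the 7 libraries were 2 in the library of size factor 1.17. The library of size factor 1.56, at 1.28 normalized counts, lay below that library at 1.71, and the other 3 lay above every library of the 7. Its means were 28.2 ± 30.8 (SD, n = 4) and 0.244 ± 0.645 (SD, n = 7), with an exact permutation p of 0.00606 (adjusted p = 0.175). The ratio of 116 had a 95% Poisson interval of 32.0 to 954. This interval covers counting error of the reads in the 7 libraries only and takes the 4-library mean as fixed, so it is too narrow for the ratio. The Poisson intervals of other genes were made in the same way. Since uniquely mapped reads alone were kept, reads shared with near-identical genes of its cluster would be missing from these counts.

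PCDH9, another non-clustered protocadherin, had 0, 10, 110 and 41 reads in the 4 libraries and 4, 0, 0, 6, 0, 0 and 2 in the 7. One of the 4 libraries, of size factor 1.56, was thus at 0 like 4 of the 7, while the highest reached 177 normalized counts. The means were 74.3 ± 84.8 (SD, n = 4) and 1.47 ± 2.02 (SD, n = 7), a ratio of 50.6 that was 3.31 without the pair of low size factor. The exact permutation p was 0.0333 (adjusted p = 0.236).

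PCDH15, a component of the tip links of sensory hair cells, had all of its reads of the 4 libraries, 38 and 12, in that pair. Its 6 reads in the 7 libraries were all in the library of size factor 1.10. The means of 23.4 ± 29.5 (SD, n = 4) and 0.776 ± 2.05 (SD, n = 7) had a ratio of 30.1, and the exact permutation p was 0.109 (adjusted p = 0.360). The other 2 of the 4 libraries and the other 6 of the 7 had no read of PCDH15.

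PCDH1, which is expressed at cell junctions of airway epithelium and of endothelium, had reads in all 4 and in 6 of 7 libraries. The 4 libraries had 13, 6, 19 and 17 reads and the 7 libraries 5, 0, 5, 14, 5, 8 and 1. The groups overlapped, since the libraries of size factor 1.56 and 1.03, at 8.34 and 5.84 normalized counts, lay within the range of the 7, which reached 11.9. The means were 22.6 ± 19.0 (SD, n = 4) and 4.60 ± 3.99 (SD, n = 7), with a ratio of 4.92 and an exact permutation p of 0.0333 (adjusted p = 0.236). Without the pair of low size factor the ratio of PCDH1 was 1.54.

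**Figure D4:**
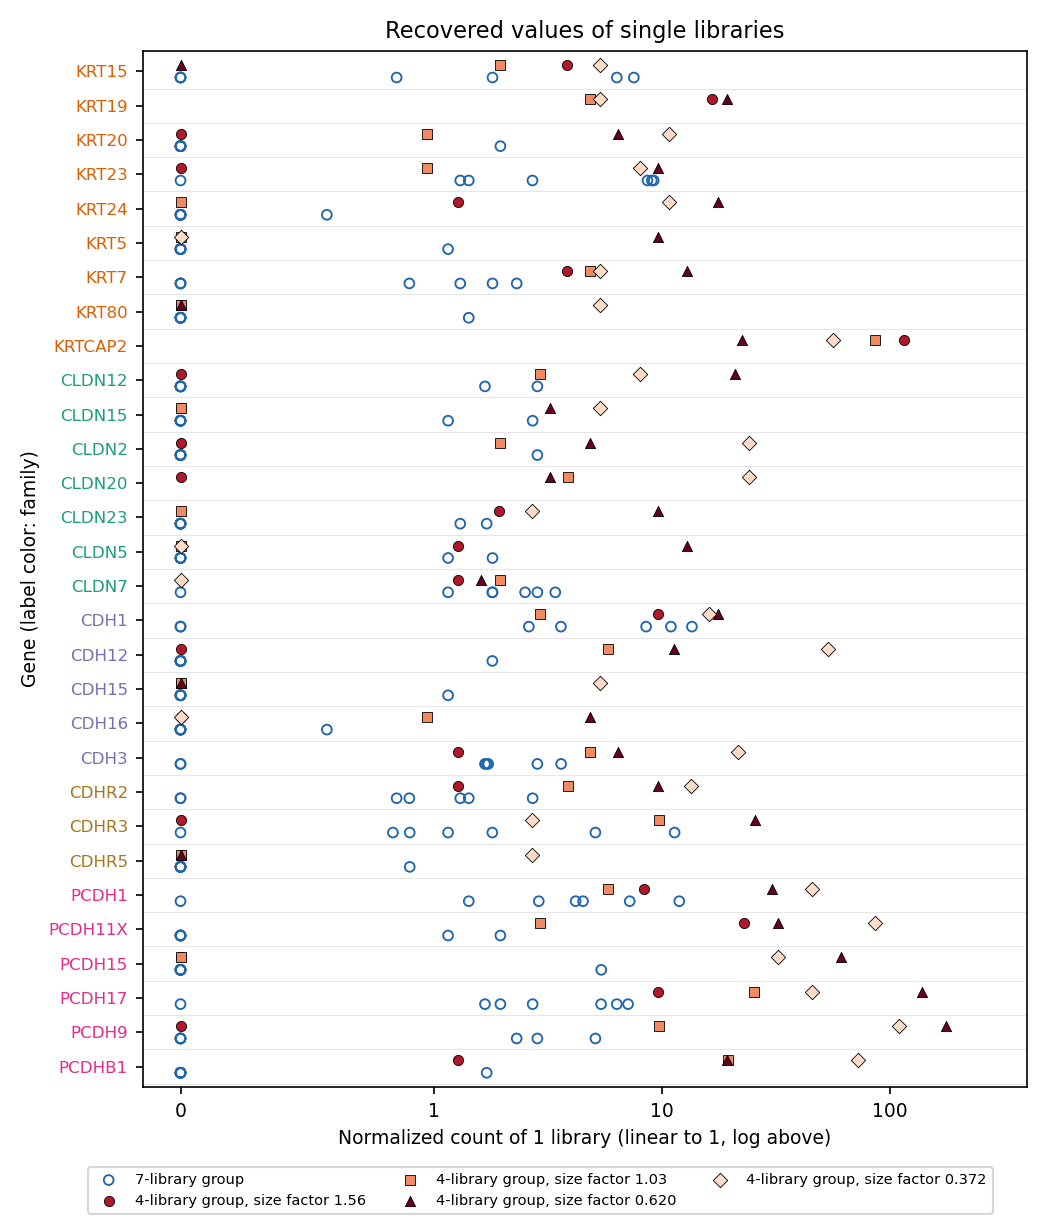
Normalized count of each library (horizontal, linear up to 1 and logarithmic above) for the 30 genes with recovered reads, 1 gene per line, label colored by family. Filled symbols are the 4 libraries by size factor and open circles the 7 libraries, which are missing where their reads could not be found, and symbols at 0 overlap. Only KRT7, PCDH11X and PCDH17 have all 4 filled symbols to the right of all 7 circles.

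Among the cadherins, CDH1 (E-cadherin), the defining adherens junction protein of epithelia, did not separate the groups. The 4 libraries had 15, 3, 11 and 6 reads and the 7 libraries 19, 4, 0, 0, 4, 15 and 6, so that the library with the most reads of CDH1 belonged to the 7, although the 2 highest normalized counts, 17.7 and 16.1, were among the 4. The means were 11.6 ± 6.77 (SD, n = 4) and 5.62 ± 5.43 (SD, n = 7) normalized counts, a ratio of 2.07 with an exact permutation p of 0.161 (adjusted p = 0.450). Without the pair of low size factor the ratio was 1.12. CDH1 had reads in all 4 and in 5 of 7 libraries.

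CDH3 (P-cadherin), found in basal layers of stratified epithelia, had 2, 5, 4 and 8 reads in the 4 libraries and 3, 0, 2, 2, 0, 4 and 2 in the 7. Of the 4 libraries 3 were above all 7, and that of size factor 1.56 lay among them. The means were 8.53 ± 8.93 (SD, n = 4) and 1.66 ± 1.34 (SD, n = 7), a ratio of 5.15 that was 1.86 without the pair, with an exact permutation p of 0.0424 (adjusted p = 0.257). Leaving out 1 library moved this p of CDH3 to between 0.00833 and 0.117.

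CDH12, a cadherin of the brain, had 0, 6, 7 and 20 reads in the 4 libraries and 2 reads in the 7, both in the library of size factor 1.11. The library of size factor 1.56 was thus at 0 like 6 of the 7. Its means were 17.7 ± 24.5 (SD, n = 4) and 0.258 ± 0.683 (SD, n = 7), with an exact permutation p of 0.0242 (adjusted p = 0.206). The ratio of 68.7 had a 95% Poisson interval of 19.0 to 567, and in the mean of the libraries of size factor 1.56 and 1.03 it was 11.3. The remaining cadherins, CDH16 of kidney tubules and CDH15 of muscle, had 4 and 2 reads in the 4 libraries and 1 and 2 reads in the 7.

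The cadherin-related genes included CDHR2, a protein of the links between microvilli of the intestinal brush border. It had 2, 4, 6 and 5 reads in the 4 libraries and 0, 2, 0, 1, 1, 3 and 1 in the 7. Among the 4 libraries 3 lay above all 7, and the one of size factor 1.56 lay within their range. The means were 7.07 ± 5.51 (SD, n = 4) and 1.03 ± 0.935 (SD, n = 7), a ratio of 6.87 that was 2.52 without the pair, and the exact permutation p was 0.0121 (adjusted p = 0.206). CDHR5, its partner in the brush border, had 1 read in each group.

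CDHR3, known from ciliated cells of the airway, had 0, 10, 16 and 1 reads in the 4 libraries and 2, 0, 1, 6, 2, 1 and 8 in the 7. The groups overlapped, since the 4 held the highest value and also a value of 0, as the 7 did. The means were 9.55 ± 11.6 (SD, n = 4) and 3.03 ± 4.04 (SD, n = 7), a ratio of 3.15 with an exact permutation p of 0.324 (adjusted p = 0.659). Without the library of size factor 0.620 the log2 ratio of CDHR3 was 0.45 instead of 1.66.

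Of the keratins, KRT7, a type II keratin of simple epithelia, was the only one whose groups did not overlap among those with reads of all libraries. It had 6, 5, 8 and 2 reads in the 4 libraries and 4, 2, 0, 0, 1, 2 and 0 in the 7. The lowest of the 4, at 3.85 normalized counts, was above the highest of the 7, at 2.31, and the means were 6.75 ± 4.15 (SD, n = 4) and 0.905 ± 0.950 (SD, n = 7). The ratio of 7.46 was 4.82 without the pair of low size factor, and the exact permutation p was 0.00303 (adjusted p = 0.149). In whole reads the groups of KRT7 did overlap, since the 2 reads of the library of size factor 0.372 were exceeded by 4 reads in that of size factor 1.73.

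KRT20, a keratin of intestinal epithelium and urothelium, had 0, 1, 4 and 4 reads in the 4 libraries and 3 reads in the 7, all in the library of size factor 1.53. The libraries of size factor 1.56 and 1.03 lay below that library, and the pair lay above it. The means were 4.55 ± 5.02 (SD, n = 4) and 0.280 ± 0.741 (SD, n = 7), with a ratio of 16.2 (95% Poisson interval 5.55 to 78.7) and an exact permutation p of 0.0455 (adjusted p = 0.257). Without the pair the ratio of KRT20 was 1.74, and leaving out 1 library moved the p to between 0.0167 and 0.125.

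KRT24, a type I keratin, had 2, 0, 11 and 4 reads in the 4 libraries and a single read in the 7. Its means were 7.44 ± 8.37 (SD, n = 4) and 0.0826 ± 0.218 (SD, n = 7), with a ratio of 90.2 whose 95% Poisson interval ran from 16.2 to 3561, and an exact permutation p of 0.0242 (adjusted p = 0.206). That read was in the library of size factor 1.73, and the other 6 of the 7 had none. Without the pair, where 2 reads remained, the ratio was 7.77.

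KRT23, a type I keratin reported from several epithelia, had nearly equal means. It had 0, 1, 6 and 3 reads in the 4 libraries and 15, 2, 11, 0, 3, 10 and 1 in the 7. The means of 4.68 ± 4.90 (SD, n = 4) and 4.63 ± 4.15 (SD, n = 7) had a log2 ratio of 0.02, with an exact permutation p of 0.824 (adjusted p = 0.943). In the mean of the libraries of size factor 1.56 and 1.03 KRT23 had a log2 ratio of -3.25, which rests on 1 read.

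KRT19, the small type I keratin used as a marker of epithelial cells in blood, was the keratin with the lower mean in the 4 libraries. It had 26, 5, 12 and 2 reads there, with a mean of 11.6 ± 7.52 (SD, n = 4), against a 7-library mean of 23.0 normalized counts, for which single libraries were not recovered and no test could be made. Its log2 ratio was -0.99. KRT19 was read in each of the 4 libraries, with a mean of 12.4 normalized counts in the pair of low size factor and 10.8 in the other pair.

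KRT5 and KRT15 mark the basal cells of stratified epithelia. KRT5 was read in 1 of the 4 and 1 of the 7 libraries, and KRT15 in 3 of the 4 and 4 of the 7. The means of KRT15, 2.79 and 2.37, were close, with a ratio of 1.18. KRT5 had 6 reads in the library of size factor 0.620 and none in the other 3, whereas KRT15 had 6, 2, 0 and 2 reads in the 4 libraries and 11, 0, 9, 1, 0, 2 and 0 in the 7. The exact permutation p was 0.364 for KRT5 (adjusted p = 0.680) and 0.609 for KRT15 (adjusted p = 0.882). KRT80 had 2 reads in the 4 libraries and 1 in the 7. KRTCAP2 had 180, 89, 14 and 21 reads, and its means of 70.3 and 59.2 normalized counts gave a ratio of 1.19. It was the only gene of the 30 with its highest normalized count in the library of size factor 1.56.

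CLDN1, a barrier-forming claudin of epidermis and other epithelia, had means of 211 normalized counts in the 4 libraries and 54.9 in the 7, a ratio of 3.85. CLDND1 had means of 860 and 596, a ratio of 1.44. Neither could be resolved into libraries, so neither has an error or a test.

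CLDN2, which forms cation pores in leaky epithelia, had 0, 2, 3 and 9 reads in the 4 libraries and 2 reads in the 7, both in the library of size factor 0.702. The pair of low size factor was above all 7, and the other 2 were not. The means were 7.75 ± 11.2 (SD, n = 4) and 0.407 ± 1.08 (SD, n = 7), with a ratio of 19.0 (95% Poisson interval 5.27 to 157), which was 2.39 without the pair. The exact permutation p was 0.0455 (adjusted p = 0.257).

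CLDN12, a claudin that lacks the usual binding motif for scaffold proteins, had 0, 3, 13 and 3 reads in the 4 libraries and 2 and 2 in the libraries of size factor 1.19 and 0.702 of the 7. The library of size factor 1.56 was at 0 and the other 3 were above all 7. Its means were 7.99 ± 9.27 (SD, n = 4) and 0.647 ± 1.15 (SD, n = 7), a ratio of 12.4 that was 2.26 without the pair, and the exact permutation p was 0.0303 (adjusted p = 0.223).

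CLDN5, the claudin of endothelium and of the blood-brain barrier, had 2, 0, 8 and 0 reads in the 4 libraries and 2 and 2 in the libraries of size factor 1.73 and 1.10 of the 7. Its ratio of 8.36 rested on 1 library: without that of size factor 0.620 the log2 ratio was 0.01 instead of 3.06. The means were 3.54 ± 6.26 (SD, n = 4) and 0.424 ± 0.748 (SD, n = 7), and the exact permutation p was 0.300 (adjusted p = 0.633).

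CLDN7, an epithelial claudin of the lateral membrane, was the claudin with the lower mean in the 4 libraries. It had 2, 2, 1 and 0 reads in the 4 and 2, 0, 3, 4, 2, 2 and 2 in the 7, with means of 1.21 ± 0.851 (SD, n = 4) and 1.94 ± 1.14 (SD, n = 7). The log2 ratio was -0.68 and the exact permutation p was 0.406 (adjusted p = 0.718). It had a read in 3 of the 4 and in 6 of the 7 libraries. CLDN20 had 0, 4, 2 and 9 reads in the 4 libraries and means of 7.83 and 6.21 normalized counts, and its log2 ratio of 0.33 was -1.67 without the pair of low size factor. CLDN15 and CLDN23 had 4 and 10 reads in the 4 libraries and 5 and 4 in the 7, with exact permutation p-values of 0.258 (adjusted p = 0.576) and 0.0758 (adjusted p = 0.349).

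Reads of these genes were often held by 1 library. Of the 27 genes, 11 had all reads of the 7 libraries in a single one, and 10 had at most 3 reads over the 7. Values of 2 reads were more frequent than values of 1 read, with 44 and 20 among these genes and 6609 and 4168 over the 4625 rows. Poisson intervals treat reads as independent, and by how much this excess of pairs widens them was not tested. Gene span was weakly related to the ratio, with a Spearman correlation across genes of 0.19 over the 32 and 0.02 over 4270 rows of up to 20 normalized counts.

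The partners of these families were listed to see which other junction and filament genes had a row. Of 19 tight junction partners, 9 had a row and all 9 had a higher mean in the 4 libraries, 3 of them at least 4 times, with a median log2 ratio of 1.73. Of all rows, 56.4% were higher and 12.0% at least 4 times. Among rows with a mean of up to 20, these shares were 67.9% and 24.8%. MARVELD3 and CGN, a membrane protein and a scaffold of tight junctions, had log2 ratios of 5.35 and 4.50, while PALS1, a polarity protein, had means of 1420 and 1265. JAM3, a junctional adhesion molecule that platelets and endothelium also carry, had an exact permutation p of 0.00303 (adjusted p = 0.149). Of the cadherin partners, 5 of 12 genes had a row, 7 rows in all with a median log2 ratio of 0.54. CTNNA1, the alpha-catenin of most tissues, had means of 756 and 863, whereas CTNNA3, the alpha-catenin of heart and testis, had means of 15.3 and 0.483.

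Other intermediate filament genes showed less of a lean. Of 16, 10 had a row, 6 were higher in the 4-library mean and 2 at least 4 times, with a median log2 ratio of 0.65. The shares over all rows were 56.4% and 12.0%. VIM, the filament protein of leukocytes, had means of 3500 and 6147 normalized counts and a log2 ratio of -0.81, and LMNB1, a nuclear lamin, had one of -0.83. SYNM and NES, filament proteins of muscle and of neural progenitors, had log2 ratios of 3.43 and 2.37. For the mucins, none of which was matched by symbol, 17 of 34 genes of their glycosylation and secretion had 18 rows with a median log2 ratio of 0.28, near that of all rows. GALNT1, which starts the sugar chains, had means of 2194 and 2153, and GALNT5 was the only one of them at a ratio over 4, with means of 22.5 and 1.77.

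**Figure D5:**
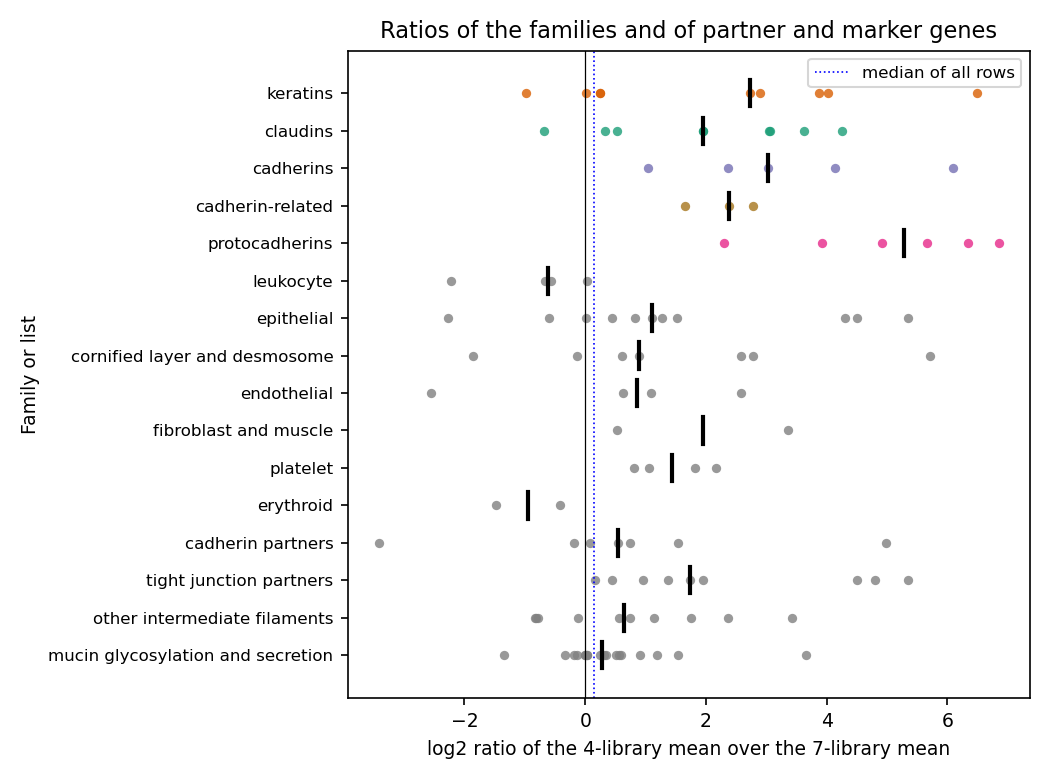
log2 ratio of the group means, 4-library over 7-library (horizontal), for each gene with a row, by family (colored) and by list of partner and marker genes (grey), with the median of each as a black bar and the median of all rows, 0.14, as a dotted line. The protocadherin median of 5.29 is farthest to the right, and the leukocyte and erythroid medians of -0.62 and -0.94 lie to the left of 0.

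Markers of the cell types a buffy coat could hold were compared in the same way. Of 10 leukocyte markers, 4 had a row under their symbol, 1 with a higher and 3 with a lower mean in the 4 libraries. ITGB2, the beta-2 integrin of white blood cells, had means of 3572 and 3481, a high level in both groups. CORO1A, the weakest of these markers, had means of 28.4 and 45.1. LYZ and CSF3R, lysozyme and the receptor of granulocyte colony-stimulating factor, had log2 ratios of -0.57 and -2.23. Platelet markers had rows for 4 of 6 genes, all higher in the 4-library mean, as were 56.4% of all rows. TUBB1, the beta-tubulin of platelets, had means of 6392 and 1422. Both erythroid markers with a row, of 6, had a lower mean in the 4 libraries, where 56.4% of all rows had a higher one.

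Epithelial markers outside the families had rows for 11 of 25 genes, 9 of them higher in the 4-library mean and 3 at least 4 times, with a median log2 ratio of 1.10. CGN and MARVELD3, which are among these 3, and TJP3 were also counted among the tight junction partners above. AP1M2 was at least 4 times lower, with means of 0.403 and 1.94, as were 2.27% of all rows. Most of the epithelial markers were weak, 9 of the 11 having a 7-library mean of up to 7. Of all rows with a mean of up to 20, 67.9% were higher and 24.8% at least 4 times. EPCAM, the defining adhesion molecule of epithelial cells in blood, had no row. TP63, the transcription factor of basal epithelial cells, had means of 10.2 and 0.517, and SPINT1, a protease inhibitor of epithelia, had 72.0 and 71.4. Over the 9 markers with reads of all libraries, the summed normalized counts ranged from 6.41 to 69.9 in the 4 libraries and from 3.61 to 29.9 in the 7. Such sums leave out markers with a high 7-library mean, through the unequal limits of recovery, so nothing is read from the gap. Over all 11 rows the group means summed to 131 in the 4 libraries and 113 in the 7. Cornified layer and desmosome genes had rows for 7 of 22, with a median log2 ratio of 0.90. Their summed normalized counts over the 4 genes with reads of all libraries ranged from 6.41 to 103 in the 4 libraries and from 0 to 24.4 in the 7. The same limits apply, and over all 7 rows the group means summed to 186 in the 4 libraries and 355 in the 7. Among them DSP, the desmosomal plakin, had means of 30.8 and 0.589, and TGM1, the transglutaminase of the epidermal envelope, had 88.6 and 322.

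Endothelial markers had rows for 4 of 10 genes (median log2 ratio 0.85). Fibroblast and muscle markers had rows for 2 of 9, both higher in the 4-library mean, as were 56.4% of all rows. Over the 2 endothelial markers with reads of all libraries the sum ranged from 1.61 to 21.5 in the 4 libraries and from 0 to 9.97 in the 7. This sum is subject to the same limits of recovery, and over all 4 rows the group means summed to 535 and 331. PECAM1 and VWF had no row. The stronger markers KDR and ESAM had means of 449 and 291 and of 78.2 and 36.9. TIE1, an endothelial receptor, had means of 0.321 and 1.88, and CLEC14A, an endothelial lectin, had 6.91 and 1.15. The part of epithelial or endothelial cells in the excess of the keratins, claudins and cadherins was not tested.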

How the data were processed

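RNA-seq libraries of 4 red tide and 7 control buffy coats were analysed, grouped by their titles, and the labels count each as an animal. The authors trimmed reads with Cutadapt after FastQC, mapped them to TriManLat1.0 with Bowtie2, and counted uniquely mapped reads per gene after duplicate removal. SAMtools and edgeR are also named in the submitters' processing notes. Which annotation release and which program counted the reads is not given in the sources used here. What the authors deposited is a signal: counts scaled by DESeq size factors and averaged, once for the 11 libraries and once per group. Their fold changes, p-values and adjusted p-values stand in the same table and were not used.

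Group columns were identified by the weights 4 and 7 of 11 with which they make up the overall mean, and by the order of the groups in the table's title. Transcript records were matched to RefSeq without the version number for 10080 rows, 11 of the 32 genes matching with it. Whole reads were kept where a single combination gave the group mean within 6e-10 (6e-09 from a mean of 10), which held for 9632 of 9634 rows up to a mean of 80 in the 4 libraries and 4644 of 4758 up to 7 in the 7 libraries. The recovery was tested on simulated data. Strongly expressed genes have group means only, without error or test. A ratio of at least 4 was the fold used. Genes, lists and tests were chosen with earlier results of these data known. Genes were named where the ratio was at least 4 with a higher mean of at least 5, where they held the 3 highest means or the extreme ratio of a family, where the exact permutation p was under 0.05, or from a fixed list of 10 symbols. The 7 other genes are named to account for all. Gene levels were not compared with each other, since transcript lengths were not used here. Alternatives were a pseudocount of 1, filters at a mean of 5 or a lower mean of 1, a ratio of 2, centring, 1 row per symbol, omission of KRTCAP2, CLDND1 and CDHR genes, other scales of the test, and leaving out libraries. Python 3.11.15, numpy 2.4.6, pandas 2.3.3, scipy 1.17.1 and matplotlib 3.10.9 were used.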

Additional observations from a re-analysis of the deposited data

Results flagged for a closer look

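Values that stood apart from the rest of their group by Dixon's criterion were found in 15 of 57 groups of libraries tested, 11 in the 7 libraries and 4 in the 4. The criterion is set for continuous values, where chance gives about 1 in 20. A gene read in only 1 library of a group always meets it, so the number of 15 cannot be set against that rate. In all 15 the gap of the highest library was the whole range (value 1), because every other library of the group had 0 reads. In the 4 libraries these were KRT5 with 6 reads at size factor 0.620, and KRT80, CDH15 and CDHR5 with 2, 2 and 1 reads at size factor 0.372. In the 7 libraries, the library of size factor 1.73 alone held KRT24 (1 read), KRT5 (2), CDH15 (2) and CDH16 (1), and that of size factor 0.702 alone held KRT80 (1) and CLDN2 (2). KRT20 (3 reads) was found only at size factor 1.53, CDH12 (2) only at 1.11, PCDHB1 (2) only at 1.17, and CDHR5 (1) and PCDH15 (6) only at 1.10.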

How the results depend on the processing

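No paired analysis was possible because the recovered libraries cannot be tied to animals or replicate numbers. The number of genes with a 4-library mean at least 4 times higher was 21 of 32. It was 12 of 32 with a pseudocount of 1 (6.92% of rows) and 7 of 14 with a mean of at least 5 (5.93%). With a lower group mean of at least 1 it was 5 of 15 (5.19%). Without the libraries of size factor 0.620 and 0.372, an alternative chosen after seeing the data, it was 7 of 30. There, 7.50% of the rows with reads of the 4 libraries were at that ratio. Under these alternatives, in this order, the median log2 ratio of 2.84 was 1.68, 2.12, 1.05 and 0.73. With genes that had no read left placed at 3 reads the last was 1.17. The number at least 4 times lower was 0, and 1 (KRT23) without that pair, against 6.20% of the rows with reads of the 4 libraries. This 1 leaves out 6 genes that had no read in the other 2 libraries and so a mean of 0 there. Leaving out 1 of the 4 libraries gave 16 to 23 of 30 genes (14.8% to 19.9% of rows) and a median of 2.37 to 3.29 (rows 0.12 to 0.29). The rows here are those with reads of the 4 libraries. Leaving out 1 of the 7 gave 20 to 21 of 27 genes (34.6% to 38.1% of rows) and a median of 2.56 to 3.40 (rows 1.21 to 1.37), where the rows are those with a low 7-library mean. In both cases 0 genes with reads left in the 4 libraries were at least 4 times lower. Of 12 weak genes, 1 had an exact permutation p under 0.05, and 2 did with linear counts, while over the 27 genes with reads of all libraries it was 13 (18.2% of rows), a count raised by the higher limit of the 4 libraries from which nothing is read. Leaving out 1 library gave 0 to 2 of the 12. The exact permutation p of KRT23 changed direction with linear counts (p = 0.982) and ranged from 0.442 to 0.948 with 1 library left out. The causes were not tested. A ratio of 2 gave 25 of 32 genes (23.9% of rows) and omission of KRTCAP2, CLDND1 and CDHR genes 19 of 27, and 1 row per symbol and centring on the all-row median of 0.14 left the count at 21. At these depths a single read decided the ratio of the weakest genes.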
